A study of Homo sapiens with 6 samples.

Results

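Ribosomal RNA was among the transcripts with listed sites in PAR-CLIP of LARP1, an RNA-binding protein that associates with mRNAs of the translation machinery, and its sites had high read levels with low T-to-C values. PAR-CLIP sites were taken from 21 rRNA transcripts of the human RefSeq set: 17 copies of 5S rRNA, the 5.8S, 18S and 28S rRNAs, and the 45S precursor from which the last 3 are cut. These transcripts held 129 of the 3948 sites listed under growing conditions and 150 of the 3947 sites listed under mTOR-inactive conditions. With identical 5S copies counted once and the precursor set apart, 51 distinct sites remained on mature rRNAs in growing cells and 61 after PP242. The transcript that the deposited mRNA-seq table names RNA45S5 under accession NR_003286.2 is paired with an 18S rRNA gene in RefSeq, and it is treated as 18S rRNA here.

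PAR-CLIP was performed on endogenous LARP1 in HEK293T, an established line from human embryonic kidney. In PAR-CLIP, cells incorporate 4-thiouridine into new RNA, ultraviolet light links the thiouridine to bound protein, and the linked base is read as C in place of T. Both PAR-CLIP groups received 100 µM 4-thiouridine for 14 hr before irradiation with 150 mJ/cm2, and the RNA was trimmed with RNase T1, which cuts after G. The growing group had no inhibitor and the mTOR-inactive group received 2.5 µM of the mTOR kinase inhibitor PP242 for a time that the labels do not give. There was 1 PAR-CLIP library per condition, so no difference between them has a replicate check or a p-value. For mRNA-seq there were 2 libraries per condition, without 4-thiouridine, and the labels do not say whether they came from separate cultures, so their p-values measure the spread between libraries, which may be technical.

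The cytoplasmic ribosome is built on these RNAs. 18S rRNA forms the core of the small subunit, where mRNA is decoded, and 28S, 5.8S and 5S rRNA form that of the large subunit, where peptide bonds are made. RNA polymerase I transcribes the 45S precursor, whose external and internal spacers are removed during processing, and RNA polymerase III transcribes 5S rRNA from a separate gene cluster. mTOR activity promotes synthesis of rRNA and of ribosomal proteins.

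The sequences shown are those of short sites on which the comparisons turn. They were read from GRCh37, where an unplaced contig, GL000220.1, holds an rRNA repeat on its plus strand and the 5S genes lie on the minus strand of chromosome 1, all 5′ to 3′ with every T in capitals, since only a T can carry the conversion. The sites on 18S rRNA at nt 566–586, 618–647 and 1101–1130 had the highest T-to-C values of that RNA under growing conditions. The 28S sites include the most heavily covered 28S site of each library, nt 3928–3957 and 4227–4254, and sites with a large difference between libraries.
18S 566–586, GL000220.1:109643-109663: TccacTTTaaaTccTTTaacg
18S 618–647, GL000220.1:109695-109724: cagccgcggTaaTTccagcTccaaTagcgT
18S 1101–1130, GL000220.1:110178-110207: TgcggcggcgTTaTTcccaTgacccgccgg
28S 2644–2663, GL000220.1:115991-116010: ggcagggcgcccTggaaTgg
28S 3782–3804, GL000220.1:117129-117151: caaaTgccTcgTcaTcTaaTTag
28S 3928–3957, GL000220.1:117275-117304: agTcTggcacggTgaagagacaTgagaggT
28S 4227–4254, GL000220.1:117574-117601: TgTccTaaggcgagcTcagggaggacag
28S 4891–4909, GL000220.1:118238-118256: gaaacggggcgcggccgga
5.8S 76–101, GL000220.1:112100-112125: aggacacaTTgaTcaTcgacacTTcg
5S 95–121, chr1:228746013-228746039: cTgggaaTaccgggTgcTgTaggcTTT
45S 432–455, GL000220.1:105855-105878: aTcgaTgTggTgacgTcgTgcTcT

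The RefSeq versions of the deposited positions were not in the reference used here, and the placement assumes that the contig has the same length between sites. Across 18S and 28S rRNA, 34 of 66 site starts (51.5%) followed a G, against a G content of 34.2%, and for starts moved by up to 5 nt the share lay between 21.2% and 43.9%. Among the 30 sites in the second part of 28S rRNA the number was 13, and 16 with a move of 1 nt, so positions there may be off by 1 nt. On 18S rRNA alone 6 of 14 starts followed a G, and 7 with a move of 4 nt, and the last nucleotide of a site was a G at 27 of the 66 sites, against 20 to 29 for moved sites. The placement of 18S sites is therefore not settled by these counts. The 28S site at nt 4891–4909 holds no T on the contig although its listed T-to-C value was above 0. Read ends beyond the site were not tested.

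Summed over distinct sites of the mature rRNAs, the listed reads came to 68512 RPM (reads scaled to 1000000 mapped reads) in growing cells and to 58870 RPM after PP242. This was 12.0% of the RPM of all listed sites in growing cells and 10.4% after PP242. With each distinct value counted once and the precursor left out, the shares were 20.2% and 15.9%. Many sites of at least 1000 RPM lay on rRNA, 29 of 105 such distinct sites in growing cells and 22 of 136 after PP242. Read numbers behind RPM were not analysed here, and counting errors cannot be stated.

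The division of this RPM among the rRNAs differed between the libraries. 28S rRNA held 55.2% of the mature rRNA RPM in growing cells and 65.7% after PP242. 18S rRNA held 34.3% and 26.2%, and 5.8S rRNA held 8.84% and 5.40%. 5S rRNA, with identical copies counted once, held 1.73% and 2.71%. Over every listed line, which adds the other 5S copies, the mature rRNAs summed to 80555 and 75666 RPM, against 68512 and 58870 RPM. On those sums the 5S share would be larger and the other shares smaller. With identical 5S copies counted once, 5.8S rRNA had the most RPM per nucleotide of rRNA in both libraries, 38.6 and 20.2 RPM per nt. Under growing conditions 18S (12.6), 5S (9.82) and 28S rRNA (7.45) followed. Under mTOR-inactive conditions the order after 5.8S was 5S (13.2), 18S (8.27) and 28S (7.62). With each of the 16 identical copies counted, 5S rRNA would come before 5.8S rRNA in both libraries.

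**Figure D1:**
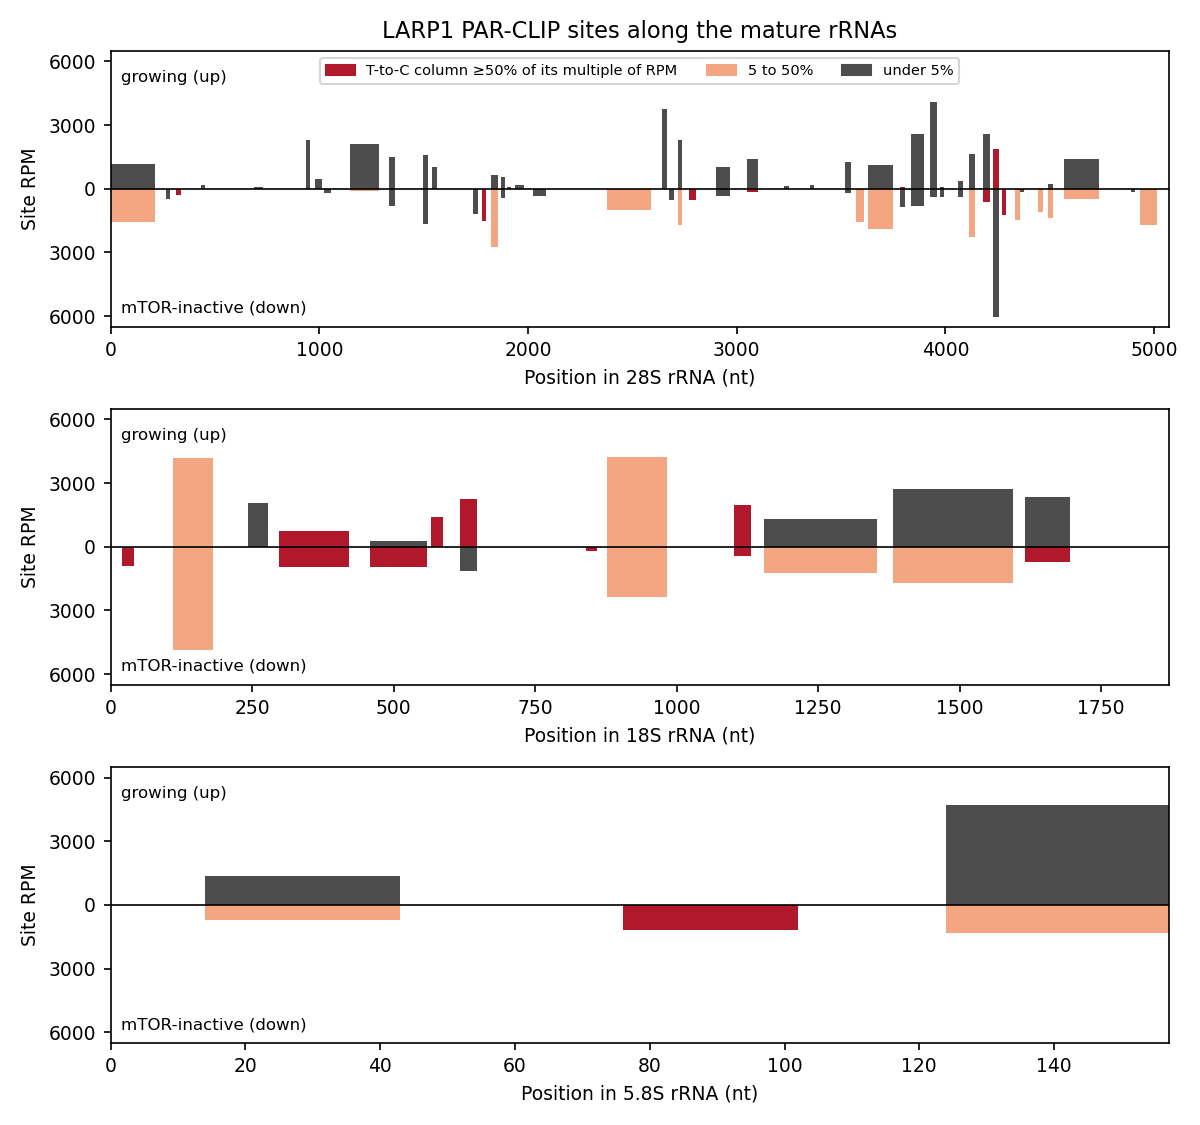
RPM of each distinct LARP1 site (y axis) against its position in 28S, 18S and 5.8S rRNA (x axis, nt), with bars above 0 for growing and below 0 for mTOR-inactive conditions, drawn over the site or a minimum visible width, and colored by the T-to-C column as a percentage of its usual multiple of RPM. The highest bar is the 28S site at nt 4227–4254 under mTOR-inactive conditions, at 6052 RPM, and dark bars under 5% prevail under growing conditions.

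On 18S rRNA, the RNA of the small subunit, 11 sites were listed under growing and 12 under mTOR-inactive conditions, covering 1010 and 1040 of 1869 nt. They summed to 23478 RPM and 15448 RPM. The site at nt 110–180 had 4176 RPM before and 4866 RPM after PP242 and was the most heavily covered 18S site of the second library. The site at nt 876–982 was the highest under growing conditions with 4236 RPM, and it had 2386 RPM under mTOR-inactive conditions. The site at nt 1382–1593, 212 nt long, had 2720 and 1705 RPM. Of the 9 sites listed in both libraries, 3 had more RPM under mTOR-inactive conditions. The largest of these differences was at nt 458–557, with 282 RPM before and 929 RPM after PP242, a 3.30-fold difference.

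On 28S rRNA, the large RNA of the large subunit, 35 sites were listed in growing cells and 43 after PP242. Their sums were alike, 37791 and 38649 RPM, while the sites that carried them were not. Under growing conditions the highest sites were at nt 3928–3957 with 4077 RPM, nt 2644–2663 with 3737 RPM and nt 3834–3896 with 2592 RPM. After PP242 these had 401, 22.3 and 797 RPM. Under mTOR-inactive conditions the highest sites were at nt 4227–4254 with 6052 RPM, nt 1821–1857 with 2732 RPM and nt 4115–4141 with 2263 RPM, against 1888, 631 and 1635 RPM under growing conditions. No site was among the 3 highest in both libraries.

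Among sites of at least 10 RPM in both libraries, the 5 largest differences in each direction lay on 28S rRNA with 1 exception, the 18S site at nt 458–557. RPM under mTOR-inactive conditions was 12.5-fold higher at nt 3782–3804 (70.0 and 872 RPM), 6.73-fold higher at nt 4491–4516 (202 and 1358 RPM), 4.98-fold higher at nt 3976–3995 (78.8 and 392 RPM) and 4.33-fold higher at nt 1821–1857. It was 168-fold lower at nt 2644–2663 and 10.2-fold lower at nt 3928–3957. It was 20.2-fold lower at nt 1148–1286 (2126 and 105 RPM), 8.69-fold lower at nt 3051–3103 (1409 and 162 RPM) and 6.76-fold lower at nt 3518–3546 (1268 and 188 RPM). The 28S sites at nt 3834–3896 and 3928–3957 both had less RPM under mTOR-inactive conditions, and the next site, at nt 3976–3995, had more.

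5.8S rRNA, which pairs with 28S rRNA in the large subunit, had sites at nt 14–42 and nt 124–156 in both libraries. The site at nt 124–156 was the highest rRNA site under growing conditions, with 4712 RPM, and had 1311 RPM under mTOR-inactive conditions. The site at nt 14–42 had 1344 and 691 RPM. Another site, at nt 76–101, was listed under mTOR-inactive conditions alone, with 1175 RPM.

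5S rRNA was listed on 17 transcripts, whose genes lie between 228746013 and 228781905 on chromosome 1. On the 16 copies with 1 common sequence the sites and values were identical, and they were counted once. The site at nt 19–83 had 166 RPM before and 180 RPM after PP242, and the site at nt 95–121 had 637 and 940 RPM. RNA5S9 differs from the common sequence by the substitution T84C (the common base, the position from the 5′ end of the RNA, the base of RNA5S9), and carried a single site at nt 19–121 with 385 and 475 RPM. 5S rRNA was the only mature rRNA whose listed sites all had more RPM after PP242, by 1.08-fold to 1.48-fold. How PAR-CLIP reads that map to several copies were divided is not given in the sources used here. The RNA5S9 site spans both sites of the common copies, and whether the same reads were counted in them was not tested.

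In all, 39 of the 73 distinct sites on mature rRNAs were listed in both libraries, which was 53.4% of the sites of either library, 76.5% of those under growing and 63.9% of those under mTOR-inactive conditions. Over all distinct sites, 13.3% were listed in both. rRNA sites had higher RPM than most sites, and sites of at least 100 RPM in either library were therefore compared as well. Of these, 57.8% of 64 rRNA sites were listed in both libraries, against 15.6% of all 559 sites, 21.4% of 42 sites on other noncoding RNAs and 9.05% of 453 sites on mRNAs. The positions of every shared site were identical in both lists. Over all transcripts and copies, 469 of 469 overlapping pairs of listed sites had the same start and end, so no site overlapped another in part. Whether site boundaries were set in each library or jointly is not given in the sources used here. A site missing from a list has no value there. The methods required a T-to-C read, and also name a threshold on RPM, although sites below 1 RPM are listed. Whether a missing site failed these filters or had no reads was not tested.

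At the 39 shared sites the RPM under mTOR-inactive conditions was higher at 17 and lower at 22, with a median log2 ratio of -0.40. It was over 2-fold higher at 7 (17.9%) and over 2-fold lower at 15 (38.5%), and 17 lay within 2-fold. Over all 272 distinct shared sites, 53.3% were over 2-fold higher and 25.7% over 2-fold lower, but most of the sites outside rRNA lay below 1 RPM. Among the 87 shared sites of at least 100 RPM in either library, 31.0% were over 2-fold higher and 35.6% over 2-fold lower, and among the 37 of these on rRNA 16.2% and 37.8%. At this minimum the summed RPM of shared sites was lower after PP242 in all 3 classes, with a ratio of 0.710 for rRNA, 0.757 for other noncoding RNAs and 0.746 for mRNAs. Site by site, the 41 shared mRNA sites of this RPM had a median log2 ratio of 0.59, with 43.9% over 2-fold higher and 31.7% over 2-fold lower, so their sum and their median differed in direction. Over all distinct sites of at least 100 RPM, shared or not, the sum was lower after PP242 on rRNA alone, at 68214 and 58833 RPM. On mRNAs it was 250993 RPM in growing cells and 273088 RPM after PP242, and on other noncoding RNAs 16818 and 33241 RPM.

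**Figure D2:**
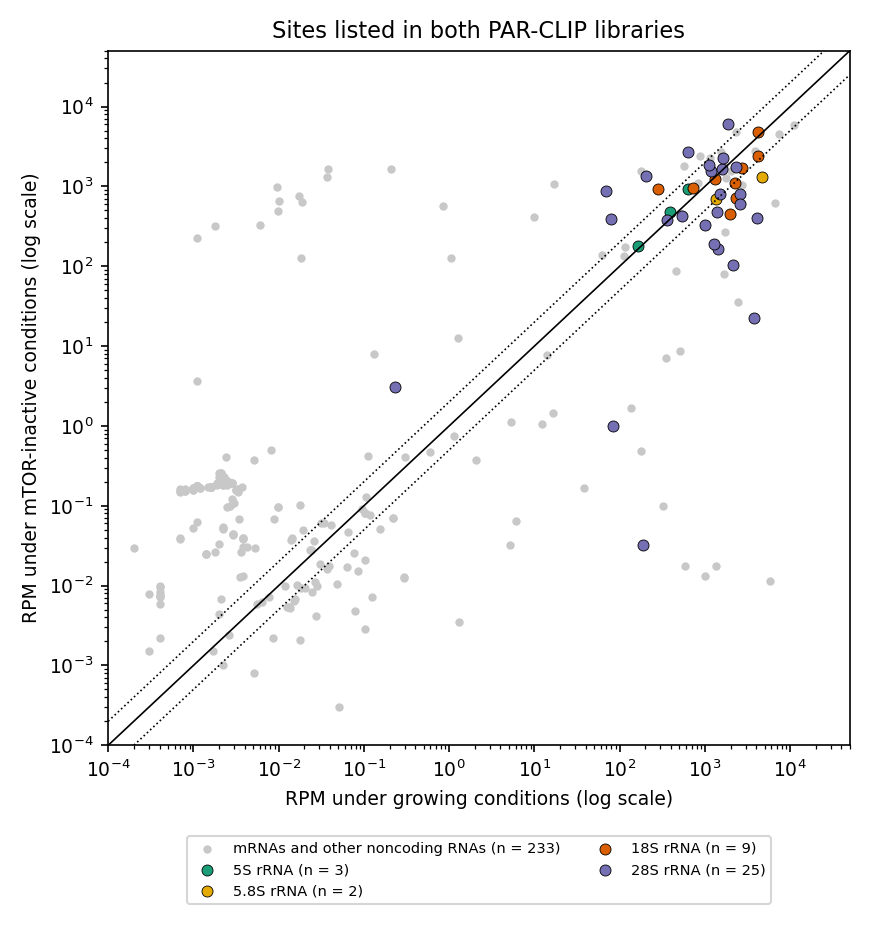
RPM of every distinct site listed in both libraries, growing (x axis) against mTOR-inactive conditions (y axis), on log scales, with rRNA sites colored by RNA and the 233 sites of other transcripts in gray. The solid line marks equal RPM and the dotted lines a 2-fold difference, and 17 of 39 rRNA sites lie between the dotted lines.

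The remaining 34 sites were listed in a single library, 12 in growing cells and 22 after PP242. Those of growing conditions summed to 7716 RPM, and the highest were 28S nt 934–956 with 2272 RPM, 18S nt 242–277 with 2046 RPM and 18S nt 566–586 with 1395 RPM. Those of mTOR-inactive conditions summed to 15744 RPM, of which 13473 RPM were on 28S rRNA, with 1732 RPM at nt 4935–5013 and 1582 RPM at nt 3574–3608. These sites are named because they were the highest, after their values were seen.

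The deposited lists give a T-to-C column, whose definition is not given in the sources used here. On mRNA sites of at least 10 RPM its median was 25.8 per RPM in the growing and 28.3 per RPM in the mTOR-inactive library. Each value is expressed below relative to this multiple, in percent. At most sites of mRNAs and of other noncoding RNAs the column was close to 100%. On rRNA it was not. Weighted by RPM, the mature rRNA sites stood at 15.1% under growing and 25.6% under mTOR-inactive conditions, against 80.8% and 92.6% on mRNAs and 79.5% and 82.3% on other noncoding RNAs. Without the 5 rRNA sites of highest T-to-C value in each library, a choice made after seeing the data, the rRNA percentages were 2.93% and 19.5%. The medians over rRNA sites were 0.951% and 17.1%.

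Of the rRNA sites of at least 100 RPM, 79.1% of 43 were under 5% of the multiple under growing and 35.2% of 54 under mTOR-inactive conditions. Over all distinct sites of this RPM, rRNA included, the shares were 34.4% and 13.2%. On mRNAs they were 21.3% of 122 sites and 10.1% of 335 sites, lower after PP242 as on rRNA. With no minimum of RPM the share on rRNA was again lower after PP242, 74.5% and 34.4%, while on mRNAs it was higher, 12.3% and 28.3%, and over all distinct sites 15.8% and 28.2%. What the low values stand for was not tested.

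**Figure D3:**
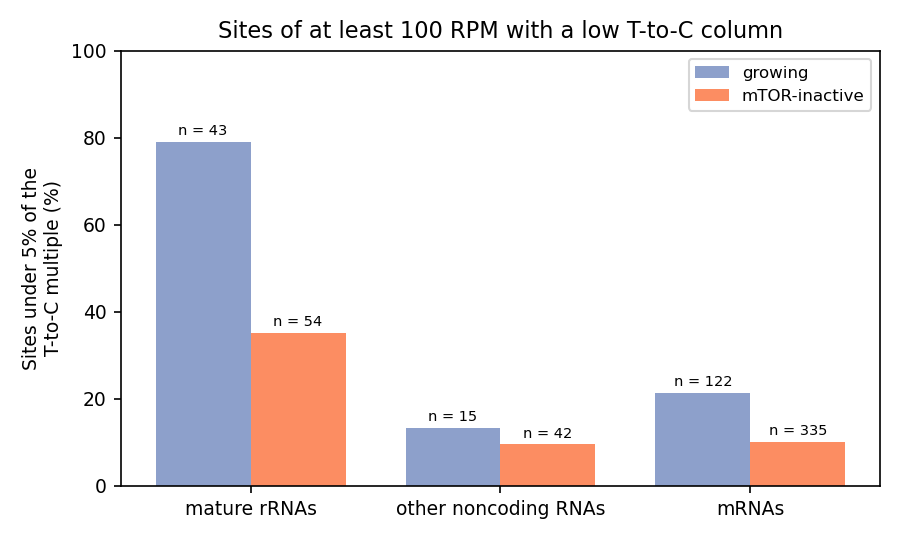
Share of distinct sites of at least 100 RPM whose T-to-C column was under 5% of its usual multiple of RPM (y axis, %), by class of transcript and library, with the number of sites above each bar. Mature rRNAs have the tallest bar in both libraries, 79.1% and 35.2%.

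The low values were not spread evenly over the rRNAs. On 28S rRNA, 30 of 35 sites were under 5% in growing cells and 20 of 43 after PP242. On 18S rRNA these were 5 of 11 and 1 of 12 sites, on 5.8S rRNA 2 of 2 and 0 of 3, and on 5S rRNA 1 of 3 and 0 of 3. Weighted by RPM, 18S rRNA stood at 32.7% and 40.1%, and 28S rRNA at 6.27% and 19.3%. 5.8S rRNA stood at 1.15% and 26.3%, and 5S rRNA at 21.6% and 34.8%.

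Few rRNA sites reached at least 50% of the multiple, 7 in growing cells and 18 after PP242. With a minimum of 100 RPM these were 11.6% and 25.9% of the rRNA sites, where 62.2% and 80.5% of all distinct sites of that RPM reached it. Of those under growing conditions, 4 were on 18S rRNA: nt 566–586 at 100%, nt 618–647 at 96.8%, nt 1101–1130 at 103% and nt 297–420 at 52.5%. The other 3 were on 28S rRNA, at nt 4227–4254 with 103%, at nt 3782–3804 with 115% and, with 0.154 RPM, at nt 753–776 with 100%. The sites at 18S nt 297–420 and 1101–1130 were above 50% in both libraries, at 74.3% and 94.0% under mTOR-inactive conditions. The 18S sites and nt 753–776 were named after their values were seen.

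At 30 of the 39 shared sites the column was higher under mTOR-inactive conditions and at 9 it was lower. No such count is given here for shared sites outside rRNA. Weighted by RPM, the percentage on mRNAs was also higher under mTOR-inactive conditions, 80.8% and 92.6%. The 9 rRNA sites with a lower value include sharp reversals. The 18S site at nt 618–647 stood at 96.8% with 2263 RPM under growing conditions and at 0.696% with 1117 RPM under mTOR-inactive conditions. The 28S site at nt 4227–4254 stood at 102.8% with 1888 RPM and at 0.677% with 6052 RPM, so the most heavily covered rRNA site of that library had almost no T-to-C value. The 28S site at nt 3782–3804 went from 115% to 0.860% while its RPM was 12.5-fold higher. In the other direction, 18S nt 1616–1694 stood at 0.659% and 88.1%, and 28S nt 4182–4212 at 0.634% and 74.9%. Both had less RPM under mTOR-inactive conditions, 2328 and 719 RPM for the first and 2560 and 604 RPM for the second. Other sites had more RPM and a higher T-to-C percentage, such as 18S nt 458–557, which stood at 1.23% and 52.1%, and 28S nt 4491–4516, at 0.183% and 17.2%. Of the 30 sites with a higher percentage, 14 had more and 16 had less RPM under mTOR-inactive conditions.

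**Figure D4:**
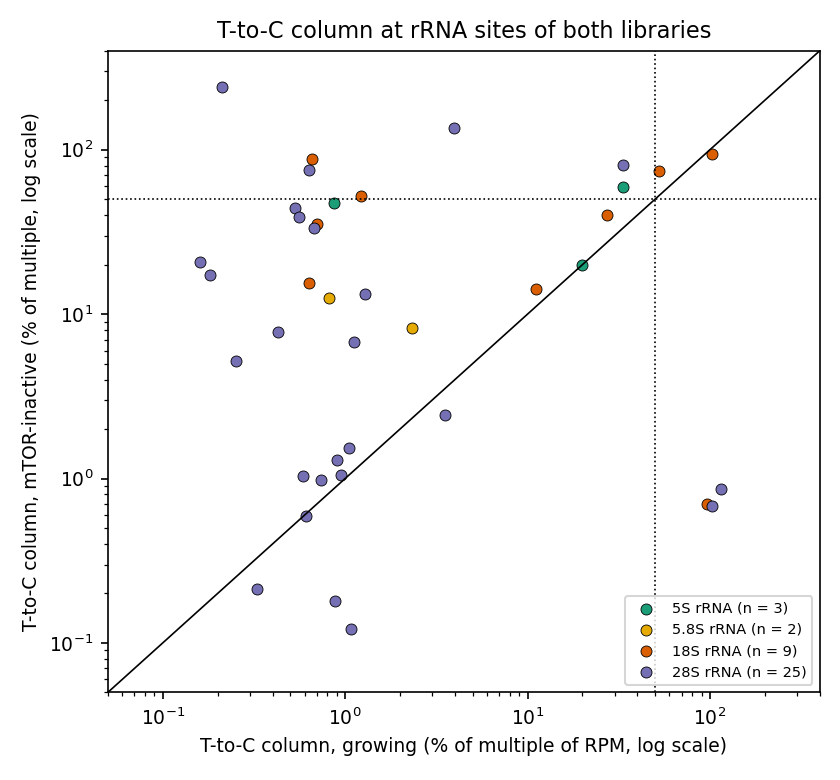
T-to-C column as a percentage of its usual multiple of RPM under growing (x axis) and mTOR-inactive conditions (y axis), on log scales, for the 39 rRNA sites listed in both libraries. The solid line marks equal values and the dotted lines 50%, and 30 sites lie above the solid line while 3 sites near 100% under growing conditions lie under 1% under mTOR-inactive conditions.

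T content, read from the placement described above with its limits, overlapped between sites with high and low values. Under growing conditions the 38 sites under 5% had a median of 15.0% T and the 7 sites of at least 50% a median of 20.0%, with ranges of 3.57% to 39.1% and 14.3% to 38.1%. Under mTOR-inactive conditions the medians were 14.3% over 21 sites and 21.6% over 18 sites. The 28S site at nt 4063–4085 had the highest T content of all, 39.1%, and stood at 0.899% and 1.30%.

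Pyrimidine content was computed because LARP1 is known for binding pyrimidine-rich sequences. On 18S rRNA, nucleotides within sites were 50.1% pyrimidines under growing conditions and those outside 46.0%. Under mTOR-inactive conditions they were 49.6% and 46.4%. On 28S rRNA the order was the opposite, with 47.7% in sites and 48.5% outside under growing and 47.0% and 49.2% under mTOR-inactive conditions. A run of 6 or more C or T was present in 8 of 11 18S sites under growing conditions (72.7%), where windows of the same lengths along 18S rRNA held it in 43.3% on average, and in 6 of 12 sites (50.0%) against 41.2% under mTOR-inactive conditions. On 28S rRNA 25.7% and 25.6% of sites held such a run, against 31.8% and 32.9% of windows. The site richest in pyrimidines was 28S nt 3051–3103, with 81.1% and a run of 21, and it had less RPM under mTOR-inactive conditions. On 5.8S rRNA the nucleotides in sites were 54.8% pyrimidines and those outside 48.9% under growing conditions, and 53.4% and 48.5% under mTOR-inactive conditions. On 5S rRNA they were 47.6% in sites and 61.1% in the 18 nt outside, in both libraries. These are descriptions of neighboring nucleotides on 4 rRNAs, with no test. These positions rest on the placement described above, which is not settled for 18S rRNA and may be shifted in the second part of 28S rRNA.

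The 45S precursor repeated the sites of the mature rRNAs. Positions of the precursor were those of 18S rRNA plus 3654, of 5.8S rRNA plus 6601 and of 28S rRNA plus 7924 at 46 of 48 sites with a mature counterpart in growing cells and at 56 of 58 after PP242. The exceptions were the site at the start of 28S rRNA in both libraries, 28S nt 980–1010 under growing conditions, which ended at nt 8938 of the precursor, and 28S nt 1023–1053 under mTOR-inactive conditions, which ended at nt 8974. All 48 precursor sites under growing conditions and 58 of 59 under mTOR-inactive conditions had a mature counterpart, 45 and 55 of them with the same RPM. In growing cells the precursor sites came to 67368 RPM and their mature counterparts to 67324 RPM, and after PP242 to 57956 and 57275 RPM. Reads at these sites cannot be told apart by molecule.

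Within the spacers a single site was listed. It lies in the 5′ external spacer at nt 432–455 of the precursor, with 340 RPM at 100% of the T-to-C multiple under mTOR-inactive conditions, and it was not listed under growing conditions. The site that starts at the first nucleotide of 28S rRNA begins 1 nt earlier on the precursor. There it had 1217 RPM against 1173 RPM on 28S rRNA under growing conditions, and 1894 against 1554 RPM under mTOR-inactive conditions. Reads assigned to the precursor alone thus amounted to 44.1 RPM and 340 RPM at this boundary. The boundary and the spacer site were named after their values were seen.

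No rRNA transcript passed the threshold in mRNA-seq. The labels give poly(A) RNA as the molecule, and mature rRNAs carry no long poly(A) tail, so these values are no measure of the rRNA content of the cells. 18S rRNA was at 407 and 477 RPKM (reads normalized to transcript length and library size) in the growing libraries and at 420 and 389 RPKM in those from PP242-treated cells. 28S rRNA was at 267 and 283 RPKM, then 281 and 231 RPKM. The precursor was at 166 and 181 RPKM, then 174 and 150 RPKM, and 5.8S rRNA at 44.7 and 61.7 RPKM, then 76.6 and 50.9 RPKM. The groups overlap for 18S rRNA, 28S rRNA, the precursor and 5.8S rRNA. The 16 common 5S copies were at 0.589 and 0.618 RPKM, then 1.22 and 0.473 RPKM, and RNA5S9 at 0.310 and 0.529, then 0.569 and 0.237 RPKM.

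**Figure D5:**
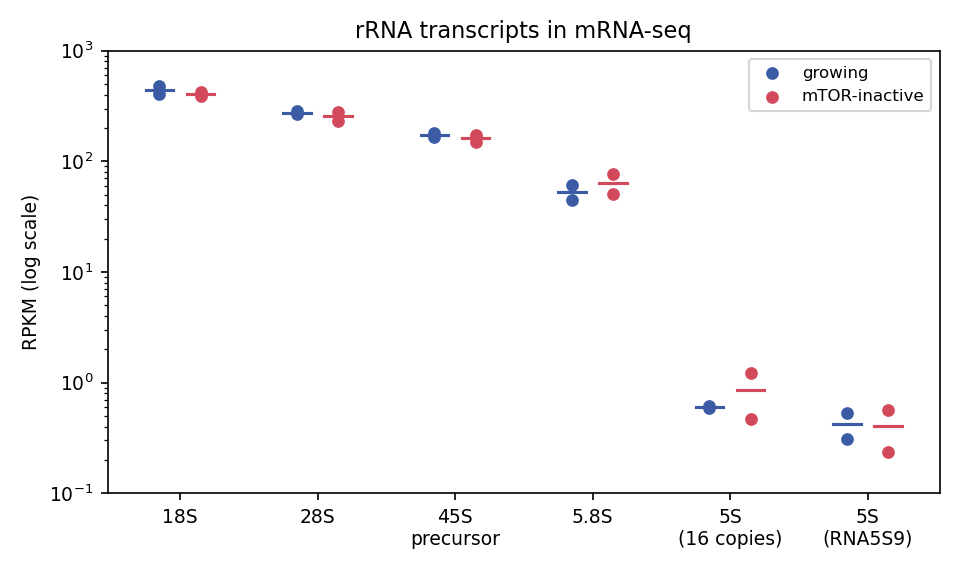
RPKM of each rRNA transcript in the 4 mRNA-seq libraries (y axis, log scale), with a point per library and a line at the mean of each condition. The points of the conditions overlap for 18S, 28S, 45S and 5.8S rRNA, and all 5S values lie under 1.3 RPKM.

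Differences were tested with limma on log2(RPKM + 1) over the 21014 transcripts that averaged 1 RPKM or more. The 17 5S transcripts were below this minimum, and 4 rRNA transcripts were tested. Of these 0 passed an adjusted p of 0.05 and 0 had an unadjusted p below 0.05, where 3.48% of all transcripts tested were higher and 6.45% lower under mTOR-inactive conditions. The log2 differences were -0.12 ± 0.0752 (SE) for 18S, -0.11 ± 0.0870 for 28S, -0.10 ± 0.0752 for the precursor and 0.25 ± 0.214 for 5.8S rRNA, with adjusted p from limma of 0.333, 0.444, 0.42 and 0.5. Without the first library from PP242-treated cells, 28S rRNA was lower by limma with an adjusted p of 0.0215 and a log2 difference of -0.25, and without the second it was 0.03 with an adjusted p of 0.731. In these fits the remaining PP242 library is assumed to vary like the growing libraries.

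The precursor RPKM also contains the mature sequences. Subtracting the mature values over their lengths left 13.9 and 13.3 RPKM over the 6261 nt of spacer in the growing libraries, and 15.98 and 14.93 RPKM in those from PP242-treated cells. Both values of the second group were above those of the first, as were those of 28.5% of all transcripts tested. An exact two-sided permutation test of 2 against 2 libraries cannot give a p below 0.333, and no other test of this derived value was made. The subtraction assumes that shared reads were divided evenly between the precursor and the mature RNAs, as the methods state for mRNA-seq.

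Genes that make rRNA were followed in the same fit, as lists chosen for their function. Of 34 mRNAs for RNA polymerase I and its factors, 1 was higher and 3 were lower under mTOR-inactive conditions, with a median log2 difference of -0.07, against -0.001 over all transcripts tested. These were 2.94% higher and 8.82% lower, near the 3.48% and 6.45% of all transcripts tested, and there were 2 calls in place of 4 without the second growing or without the first PP242 library. CD3EAP, a subunit of RNA polymerase I, was at 9.38 and 9.03 RPKM and fell to 7.37 and 6.88 RPKM (log2 difference -0.33, adjusted p = 0.00886 by limma). POLR1C, a subunit shared by RNA polymerases I and III, fell from 41.2 and 42.1 to 37.2 and 37.3 RPKM (log2 difference -0.16, adjusted p = 0.0175 by limma). TOP2A, a DNA topoisomerase, rose from 76.7 and 79.3 to 89.3 and 90.3 RPKM (log2 difference 0.20, adjusted p = 0.00936 by limma).

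Of 50 mRNAs for RNA polymerase III, its factors for 5S genes and proteins of the 5S particle, 1 was higher and 6 were lower (2% and 12%, against 3.48% and 6.45% of all transcripts tested), with a median of -0.03. Leaving out any single library gave 3 or 4 calls in place of 7. RRS1, which helps to load the 5S particle onto the large subunit, fell from 38.7 and 36.8 to 26.4 and 27.0 RPKM (log2 difference -0.48, adjusted p = 0.00163 by limma). POLR3F, a subunit of RNA polymerase III, fell from 12.7 and 13.5 to 10.3 and 10.5 RPKM (log2 difference -0.30, adjusted p = 0.00864 by limma). POLR3GL rose from 12.8 and 12.3 to 14.3 and 13.9 RPKM (log2 difference 0.16, adjusted p = 0.0365 by limma), while its paralog POLR3G was among the mRNAs that fell. Of 55 mRNAs for rRNA processing and modification, 0 were higher and 2 were lower (3.64%, against 6.45% of all transcripts tested), with a median of -0.03. These were UTP3, of the small subunit processome, at 25.3 and 25.0, then 19.03 and 19.38 RPKM, and ISG20L2, a nucleolar exonuclease, at 39.0 and 39.2, then 33.0 and 33.5 RPKM. With a mean of at least 5 RPKM, 4 of 53 processing mRNAs were called.

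The cell line was checked against markers in mRNA-seq. Of the markers chosen for HEK293T, LIN28B (19.1 to 19.9 RPKM), IGF2BP1 and NEFM were present. PAX2, also chosen for HEK293T, was nearly absent, at 0.136 RPKM or less. PTPRC and ALB, markers of blood cells and liver, were at 0.0402 RPKM or less. COL1A1, a marker of fibroblasts, was at 1.76 to 1.84 RPKM. KRT5, a marker of basal epithelium, was looked up by name, but no value was found for it. The mRNA of LARP1 itself was at 53.5 to 55.4 RPKM in all 4 libraries.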

How the data were processed

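The authors removed linkers, mapped reads to the GRCh37 transcriptome with Bowtie, clustered PAR-CLIP reads with 0 to 2 T-to-C mismatches, kept clusters with a converted read (an RPM threshold is also named, without its value) and deposited RPM for each site. Deposited beside it are a ratio, RPM over transcript RPKM times 1000, and T-to-C values, used as a score of unknown definition. For mRNA-seq the authors deposited RPKM from perfect matches, with reads of several loci divided evenly. All per-sample columns were used.

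Members were found by gene name and RefSeq accession. The members and gene lists were chosen with earlier results of these data known. Identical 5S copies were counted once. RPM was compared as a ratio between single libraries, without a test. Transcripts were tested with limma 3.58.1 (R 4.3.3, moderated variances with a trend) on log2(RPKM + 1), with Benjamini-Hochberg adjustment over all 21014 transcripts, and a threshold of 0.05. Only protein-coding accessions of the gene lists were counted. In simulated data the test recovered 200 of 200 transcripts changed by 1 log2 unit, set among those above about 5 RPKM, and called 9 unchanged ones. Smaller changes, such as those of the rRNA transcripts and the named genes, were not simulated. Fold changes on this scale understate those of low RPKM. Low steps of RPKM put the depth of the later libraries at 1.04 to 1.06 times that of the first. The rRNA repeat was placed with BLAST 2.17.0 from an annotated 5.8S transcript (94.6% over 149 nt), and tables were handled in Python 3.11.15 with pandas 2.3.3. Sites were named if among the 3 with the most RPM on their rRNA in either library. They were also named if among the 5 with the largest rise or fall of those with at least 10 RPM in both. Genes were named if among the 2 with the largest change in each direction of those that passed the threshold in their list. Others were chosen after their values were seen.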

Additional observations from a re-analysis of the deposited data

How the results depend on the processing

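The limits are those of single PAR-CLIP libraries: no read numbers, 1 library per condition, and intervals identical in both lists, so that requiring 50% of the shorter or longer site left 39 shared sites. Summed mature rRNA RPM was 80555 (growing) and 75666 (mTOR-inactive) over every listed line, and 68214 and 58833 with a minimum of 100 RPM. The shares of listed RPM became 20.2% and 15.9% with distinct values counted once. Every listed line gave 81 sites under growing conditions. The median log2 ratio at shared sites was -0.39 when scaled to all listed RPM, -0.37 with the authors' normalization to RPKM and, in a choice made after seeing the data, -0.38 for sites of at least 10 RPM in both libraries. Weighted by RPM, the pyrimidine content of sites was 48.1% (growing) and 48.1% (mTOR-inactive) on 5S, 59.5% and 54.5% on 5.8S, 53.8% and 52.8% on 18S, and 44.9% and 47.6% on 28S rRNA. The RPM-weighted T-to-C percentage, in choices made after seeing the data, was 15.0% and 25.3% without 5S rRNA and 2.93% and 19.5% without the 5 sites of highest T-to-C value, and the median over sites was 0.951% and 17.1%. In mRNA-seq, leaving out single libraries gave 0 to 1 rRNA transcripts called, 3 to 4 of the 5S list, 2 to 3 of the RNA polymerase I list and 2 to 2 of the processing list. Over these fits the log2 difference ranged from -0.044 to 0.54 for 5.8S rRNA, from -0.25 to 0.028 for 28S rRNA and from -0.21 to 0.0045 for the precursor, and its sign turned in each without a single library from PP242-treated cells. With a mean of at least 5 RPKM, 4 processing mRNAs were called. Replicate numbers shared only a label (correlation of deviations 0.0401, 2 numbers), and with the replicate block 0 rRNA transcripts, 7, 4 and 3 mRNAs of the lists and 2135 of all transcripts were called, against 2087 without it.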
